A study of Mus musculus with 86 samples.

Results

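The 9 genes described here are the transcription factor NRF2, encoded by Nfe2l2, and 8 of the antioxidant genes it is known to activate: Nqo1, Gclm, Gclc, Txnrd1, Srxn1, Slc7a11, Gsr and Prdx1. They were chosen by name, with earlier results of these data known. All 9 were found among the 24063 gene symbols of the deposited expression tables, where the longest listed transcript of each symbol was used. The 86 mouse samples of the study comprise 26 RNA-seq libraries, 13 ChIP-seq lists for each of PU.1, H3K4me2 and H3K27ac, with 21 inputs. The study compared macrophages of different tissues, and asked how far culture conditions shape their gene expression and regulatory elements. Untreated cells of C57BL6/J mice came from 5 sources with 2 population libraries each. Microglia were sorted from brain, and the large (LPM) and small (SPM) macrophages of the peritoneum were sorted likewise. BMDM were grown from bone marrow in L-cell conditioned medium and then in M-CSF, and TGEM were drawn to the peritoneum with thioglycollate. Microglia and LPM of untreated NOD/ShiLtJ and SPRET/EiJ mice gave 1 library each per strain. C57BL6/J LPM were also cultured for 7 days in 4 ng/ml IL-34 or M-CSF, ligands of the same receptor CSF1R, and each ligand was combined with DMSO, 2 uM all-trans retinoic acid (ATRA), 1 ng/ml TGFB1 or the vehicle of TGFB1. C57BL6/J microglia were cultured for 7 days in 4 ng/ml IL-34, M-CSF or GM-CSF with no additive; the GM-CSF culture is named by its title, since its treatment field names M-CSF. Each of these 11 cultures was sequenced once and tabulated together with 1 further untreated microglia library. Ages, sexes and pooling of animals are not given in the labels, and no group carries an engineered allele.

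NRF2 is held at a low protein level by KEAP1, an adaptor that hands it to a CUL3 ubiquitin ligase. Electrophiles and oxidants modify cysteines of KEAP1, NRF2 then accumulates, and it binds antioxidant response elements as a heterodimer with small MAF proteins. Because this control acts on the protein, the transcript of Nfe2l2 need not follow the activity of the factor, and NRF2 protein was not measured here. Among its targets, SLC7A11 imports cystine, GCLC and GCLM are the catalytic and modifier subunits of the enzyme that limits glutathione synthesis, and GSR returns oxidised glutathione to its reduced form. TXNRD1 reduces thioredoxin, PRDX1 is a peroxidase that thioredoxin keeps reduced, and SRXN1 repairs peroxiredoxins that have been over-oxidised. NQO1 reduces quinones.

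Promoter sequence was compared first, since a few of these promoters carry the letters of the NRF2 element. RefSeq windows on GRCm38.p6, the assembly of mm10, run from 250 bases before to 50 bases after a start, and 7 of the 9 genes matched an entry; Gclc and Gsr did not. The core of the antioxidant response element was searched as TGACNNNGC on one strand and GCNNNGTCA on the other. It occurred in 12.4% of 32851 mouse promoter windows and in 5 of the 9 windows of the 7 genes, 1 each for Nfe2l2, Gclm, Prdx1, Srxn1 and the second listed start of Txnrd1. The 5 windows are printed 5′ to 3′ on the strand of the gene, with the match in capitals, because they are the windows of these genes that hold it.
Nfe2l2, chr2:75704614-75704913, minus strand: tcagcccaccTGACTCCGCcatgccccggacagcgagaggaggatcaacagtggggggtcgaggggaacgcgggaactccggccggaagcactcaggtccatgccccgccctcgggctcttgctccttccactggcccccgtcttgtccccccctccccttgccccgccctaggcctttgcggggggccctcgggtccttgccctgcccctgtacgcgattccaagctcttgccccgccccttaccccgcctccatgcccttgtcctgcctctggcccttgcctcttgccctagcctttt
Gclm, chr3:122245307-122245606, plus strand: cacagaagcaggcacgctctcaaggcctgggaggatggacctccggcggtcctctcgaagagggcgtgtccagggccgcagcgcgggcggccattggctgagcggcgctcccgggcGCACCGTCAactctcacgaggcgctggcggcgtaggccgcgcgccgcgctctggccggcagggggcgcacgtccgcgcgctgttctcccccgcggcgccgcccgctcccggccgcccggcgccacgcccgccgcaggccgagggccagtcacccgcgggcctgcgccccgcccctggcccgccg
Prdx1, chr4:116685349-116685648, plus strand: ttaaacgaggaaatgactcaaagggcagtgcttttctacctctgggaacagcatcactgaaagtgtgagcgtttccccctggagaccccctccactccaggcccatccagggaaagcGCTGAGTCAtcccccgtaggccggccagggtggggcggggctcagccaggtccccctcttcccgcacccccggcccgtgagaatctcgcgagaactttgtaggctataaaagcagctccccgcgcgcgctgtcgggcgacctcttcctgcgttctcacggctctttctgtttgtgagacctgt
Srxn1, chr2:152105274-152105573, plus strand: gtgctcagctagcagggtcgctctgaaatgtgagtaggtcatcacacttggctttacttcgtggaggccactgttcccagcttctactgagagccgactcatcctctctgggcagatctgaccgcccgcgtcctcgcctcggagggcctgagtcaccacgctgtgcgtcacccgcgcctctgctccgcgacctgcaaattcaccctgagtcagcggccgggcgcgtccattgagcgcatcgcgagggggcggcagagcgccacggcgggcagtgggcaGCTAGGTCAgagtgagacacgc
Txnrd1, chr10:82858956-82859255, plus strand: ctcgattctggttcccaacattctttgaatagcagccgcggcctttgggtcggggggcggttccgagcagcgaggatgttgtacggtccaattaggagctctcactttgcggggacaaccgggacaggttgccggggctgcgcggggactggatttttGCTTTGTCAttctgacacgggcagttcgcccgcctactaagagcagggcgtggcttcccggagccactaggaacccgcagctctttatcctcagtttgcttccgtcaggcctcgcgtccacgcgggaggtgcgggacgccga
The match lay 240 bases before the start in Nfe2l2, 134 before it in Gclm, 133 before it in Prdx1, 92 before it in Txnrd1 and 28 after it in Srxn1. The AP-1 element TGANTCA, which reads the same on both strands, occurred in 7.81% of all windows and in those of Srxn1 and Prdx1. One AP-1 match of Prdx1, 131 bases before the start, overlaps its antioxidant match. The PU.1 element GAGGAAGT or ACTTCCTC occurred in 3.2% of all windows and in 0 of the 9 windows of these genes. A match of letters is a description, and no binding of NRF2 was measured.

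Gene signal is given as reads per 10000000 mapped reads, so a value of 1 is 1 read in 10000000. Libraries held 2890000 to 27000000 mapped reads, with SPM replicate 1 the shallowest. Values of the 10 population libraries were counted over whole gene spans with introns, and those of the cultures over exons, so levels were never compared between these tables. Fitted differences are log2 folds of value + 1 with their standard error (SE) from limma, which understates changes of low genes, and a call needed both an adjusted p (Benjamini-Hochberg) under 0.05 and an absolute log2 fold of 1 or more. Whether replicates are separate animals is not labelled, so p-values measure the spread between libraries, which may be technical. Summed microglia markers lay at 77080 to 109431 in the population microglia and at 1859 to 14480 in the other populations. LPM markers were high in the SPM libraries too, at 43668 to 100447 against 66951 to 168875 in LPM, so the SPM libraries hold the marker RNA of LPM as well as their own label's. B cell markers summed to 3924 to 7924 in SPM, 528.1 to 727.9 in LPM and 43.79 to 362.5 in the other populations. Immediate early genes, which rise within minutes of handling or stimulation, summed to 47864 and 176519 in the microglia libraries and to 3632 to 14873 in the other populations. The replicates of BMDM and TGEM also differed in sex-linked genes, with the female transcript Xist at 6418 and 6.52 in BMDM replicates 1 and 2 and at 1.48 and 1738 in those of TGEM. The part of these features in any result was not tested. In bulk RNA, fewer cells of a type and less RNA per cell cannot be told apart.

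Across the 5 populations, most of the 9 genes were highest in the macrophages that had been cultured or elicited. Gclm, Txnrd1, Srxn1, Slc7a11, Prdx1 and Nqo1 had their highest means in BMDM or TGEM, and lower means in every resident population than in either. The share of all genes with their highest mean in BMDM or TGEM was not computed. Nfe2l2 was high in microglia as well, Gsr was highest in LPM, and Gclc was highest in microglia with little range. All 7 mesothelial and fibroblast markers measured summed to 2283 to 3143 in TGEM, 61.49 to 122.7 in BMDM and 2.15 to 7.594 in the resident cells. The 6 neutrophil markers summed to 1064 to 2949 in BMDM, 324 to 342.6 in TGEM, 121.8 to 537.5 in microglia and 13.81 to 28.04 in LPM and SPM. The part of these cells in the differences was not tested. In the F test over populations 8 of the 9 genes were called, all but Gclc, where 42.3% of the 19313 genes tested were called. The median range between the highest and lowest population was 3.73 on the log2 scale over the 9 genes and 1.81 over all genes tested.

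Nfe2l2 (chr2:75675519-75704641, minus strand, mm10) read 5108 and 4439.6 in BMDM, 2412 and 4015 in TGEM, 2391 and 4118 in microglia, 1408 and 1033 in LPM and 1254 and 982 in SPM. BMDM stood above every other library, microglia and TGEM overlapped, and LPM and SPM overlapped below all the rest. The F test gave an adjusted p of 0.00775 for it.

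Slc7a11 (chr3:50364936-50443613, minus strand), the cystine importer, read 168 and 308 in TGEM, 119 and 226 in BMDM, 10.0 and 56.2 in microglia, 13.9 and 5.97 in SPM and 6.01 and 2.56 in LPM. TGEM and BMDM overlapped, and all of their libraries lay above all resident libraries, whose neighbours in the order overlapped one another. Gclm (chr3:122245557-122267215, plus strand), the modifier subunit, read 1009.7 and 844 in BMDM, 661 and 330.2 in TGEM, 202 and 107 in LPM, 169.8 and 108 in SPM and 88.2 and 53.1 in microglia. Here the order BMDM, TGEM, LPM, SPM, microglia held without overlap except between LPM and SPM. Gclc (chr9:77754535-77794489, plus strand), the catalytic subunit, read 506 and 671 in microglia, 434 and 459 in TGEM, 520.4 and 368 in BMDM, 360.3 and 292 in SPM and 264 and 235 in LPM. Its means spanned 2.36 times, the least of the 9 genes, against 13.1 times for Gclm, and it did not pass the F test (adjusted p = 0.0657). Microglia held the highest mean of the catalytic and the lowest of the modifier subunit. For the catalytic Gclc, however, the microglia and BMDM libraries overlapped, and it was not called in microglia against SPM, BMDM or TGEM.

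Gsr (chr8:33653238-33698162, plus strand), glutathione reductase, read 2283 and 2097 in LPM, 1667 and 1517 in SPM, 1892 and 1276 in TGEM, 723 and 665 in BMDM and 220.0 and 162 in microglia. It was the 1 gene of the 9 with its highest mean in a resident peritoneal population; SPM and TGEM overlapped, and BMDM and microglia stood apart from all others. The mean in LPM, 2189.8 ± 131 (SD, n = 2), was 11.5 times that in microglia, 191 ± 40.8 (SD, n = 2).

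The thioredoxin genes followed another order. Txnrd1 (chr10:82833951-82897724, plus strand), thioredoxin reductase, read 3713 and 2605 in TGEM, 2436 and 1252 in BMDM, 800.4 and 625 in SPM, 688 and 604 in LPM and 355 and 354 in microglia. Srxn1 (chr2:152105524-152111376, plus strand), sulfiredoxin, read 2958 and 1971 in TGEM, 1433 and 596 in BMDM, 114 and 124 in SPM, 109 and 83.9 in LPM and 28.7 and 10.9 in microglia. Both had TGEM above BMDM above the resident cells with no overlap between those 3 levels, and microglia below the peritoneal cells. The means of Srxn1 spanned 124 times, the widest range of the 9 genes. Prdx1 (chr4:116685599-116700000, plus strand), the peroxidase, read 10164 and 9812 in BMDM, 6641 and 5083 in TGEM, 655 and 567 in SPM, 606 and 475 in LPM and 314 and 192 in microglia. BMDM led TGEM without overlap, SPM and LPM overlapped, and microglia were lowest, a span of 39.5 times between the highest and lowest mean. A gene on the opposite strand, AV051173, overlaps Prdx1 by 423 bases and reached at most 337 over all 26 RNA libraries. On the same strand, Eid3 overlaps Txnrd1 by 1303 bases and reached at most 70.4. No strand setting is given, and reads of the shared stretches cannot be told apart.

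Nqo1 (chr8:107388225-107403205, minus strand), the quinone reductase, was scarcely read in resident cells. It stood at 25.5 and 111 in BMDM and at 27.8 and 22.3 in TGEM, from 56 and 239 reads and from 75 and 9 reads. LPM held 7 and 5 reads, microglia 3 and 1, and SPM 0 and 6. A count of 0 in SPM replicate 1 allows a level of up to 10.4 (3 reads), so the order of Nqo1 among resident cells was not detectable at this depth. Such floors cover counting error only.

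**Figure D1:**
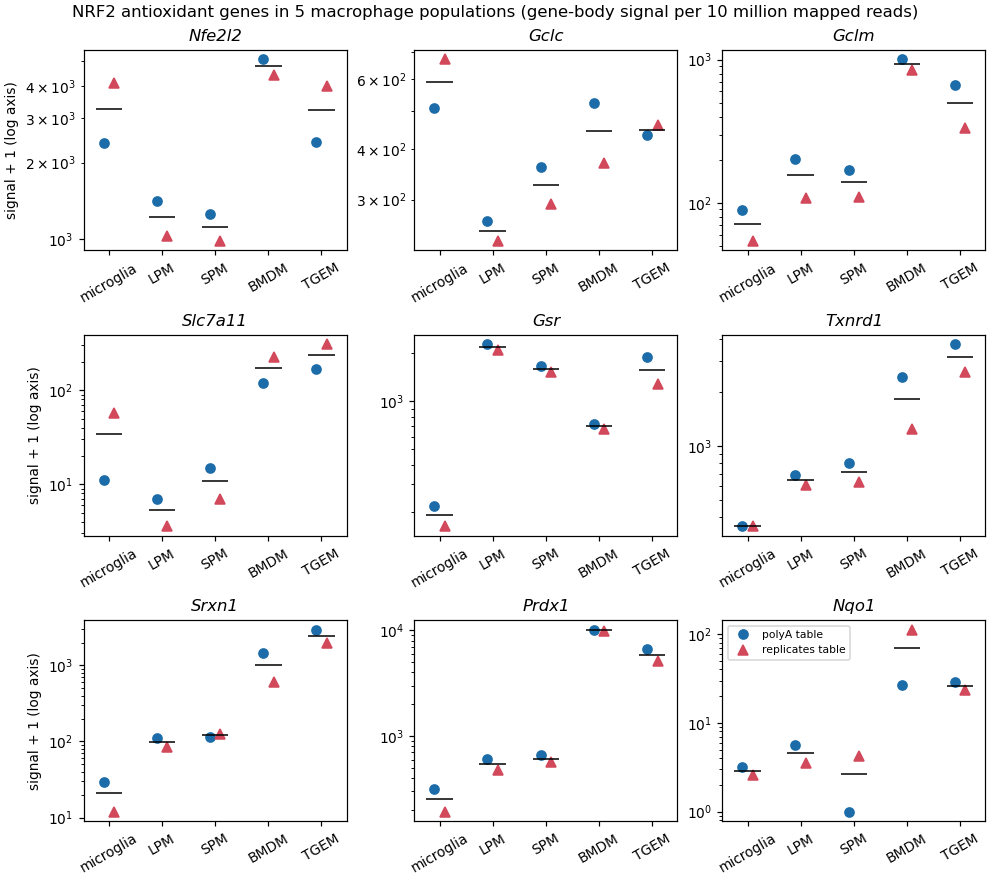
Each panel shows 1 of the 9 genes in the 5 C57BL6/J populations, as reads per 10000000 mapped reads plus 1 on a log axis, with points for the libraries of each deposited table and a line at the mean. BMDM and TGEM stand above the resident cells in Gclm, Txnrd1, Srxn1, Slc7a11, Prdx1 and Nqo1, while Gsr peaks in LPM at 2283 and 2097.

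The pairwise tests shared the same 10 libraries, so the pairs are not independent of each other. Of 90 tests of a gene in a pair of populations, 54 were called, from 1 for Gclc to 8 each for Srxn1 and Prdx1. Over all genes the same pairs gave 38060 calls, with 19313 genes tested in each pair and 0.0259% to 37.5% of them called. LPM against SPM gave 0 calls of the 9 genes in limma, where 0.0259% of all genes were called, and edgeR called 0 as well. An unadjusted limma p under 0.05 was found for 0 of the 9 and for 793 of the 19313 genes tested.

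LPM were lower than BMDM in 7 of the 9 genes and higher in Gsr, where 15.6% of all genes were called in either direction. Prdx1 was lower by -4.22 ± 0.31 (log2 fold ± SE, limma adjusted p = 4.62e-05), Srxn1 by -3.26 ± 0.41 (adjusted p = 0.000723) and Gclm by -2.64 ± 0.32 (adjusted p = 0.000646). These 3 calls held in every alternative fit. Slc7a11 was lower by -5.04 ± 0.84 (adjusted p = 0.0033) and Gsr higher by 1.66 ± 0.29 (adjusted p = 0.00459). Nqo1 was lower by -3.60 ± 0.90 (adjusted p = 0.0248). Its call was lost in several fits that left out a library, with folds of -2.66 without BMDM replicate 2 and -2.82 without LPM replicate 2. Nfe2l2, at -1.98 ± 0.41 (adjusted p = 0.0109), missed the threshold without either LPM or either BMDM library, at adjusted p of 0.0657 to 0.19. Txnrd1, at -1.44 ± 0.32 (adjusted p = 0.0153), missed it without BMDM replicate 1 or either LPM library, at 0.123 to 0.162. Gsr missed it without either LPM library (0.0571 and 0.0916), and Slc7a11 without BMDM replicate 2 or LPM replicate 2 (0.0666 and 0.0825). Nqo1 also missed it without LPM replicates 1 or 2, either microglia library or TGEM replicate 1 (0.051 to 0.301). The median fold was -2.64 over the 9 genes and 0.00 over all genes.

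LPM were lower than TGEM in 6 of the 9 genes, with 27% of all genes called. The largest falls in LPM were Slc7a11 at -5.52 ± 0.84 (limma adjusted p = 0.00135), Srxn1 at -4.64 ± 0.41 (adjusted p = 8.26e-05) and Prdx1 at -3.43 ± 0.31 (adjusted p = 8.72e-05). Txnrd1 was lower by -2.27 ± 0.32 (adjusted p = 0.000966), Gclm by -1.66 ± 0.32 (adjusted p = 0.00511) and Nfe2l2 by -1.37 ± 0.41 (adjusted p = 0.0355). The call of Nfe2l2 was lost in 7 of the 10 fits that left out 1 library, namely either LPM, BMDM or SPM library or TGEM replicate 2 (adjusted p of 0.0571 to 0.311). That of Gclm was lost without either LPM library (0.0506 and 0.0822). Gsr differed by 0.49 ± 0.29 (adjusted p = 0.246), and the median over the 9 genes was -2.27 against 0.01 over all genes.

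Between BMDM and TGEM, where 5.94% of all genes were called, Gsr was lower in BMDM by -1.16 ± 0.29 (limma adjusted p = 0.0493) and was the 1 gene called. That call was lost in each of the 10 fits that left out 1 library, at adjusted p of 0.0504 to 0.231. Srxn1 stood at -1.38 ± 0.41 in this pair (adjusted p = 0.0809).

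In microglia against LPM genes were called in both directions. Nfe2l2 (1.38 ± 0.41, limma adjusted p = 0.0461) and Gclc (1.22 ± 0.32, adjusted p = 0.0256) were higher in microglia. Gsr (-3.53 ± 0.29, adjusted p = 3.74e-05), Srxn1 (-2.36 ± 0.41, adjusted p = 0.00289), Prdx1 (-1.13 ± 0.31, adjusted p = 0.0302) and Gclm (-1.09 ± 0.32, adjusted p = 0.0436) were lower. That is 2 higher and 4 lower of 9, where 18.3% of all genes were called, with a median of -0.86 over the 9 genes and -0.11 over all genes. Slc7a11 (2.33 ± 0.84, limma adjusted p = 0.0883), Txnrd1 (-0.86 ± 0.32, adjusted p = 0.104) and Nqo1 (-0.66 ± 0.90, adjusted p = 0.7) were not called. The call of Gsr held in every alternative fit, and that of Srxn1 in every one but the fit without LPM replicate 2 (adjusted p = 0.0595). Nfe2l2 lost its call in 9 of the 10 fits that left out 1 library, all but the one without TGEM replicate 2. Its fold was 0.95 without microglia replicate 3 (adjusted p = 0.229) and 1.38 with no block (adjusted p = 0.055). Gclm lost its call in 8 of these 10 fits, all but those without a TGEM library (adjusted p of 0.0515 to 0.308), and with no block (0.178). Gclc and Prdx1 lost theirs without either LPM library, either SPM library or microglia replicate 3 (0.0592 to 0.21), and Prdx1 also with no block (0.0609). Under TMM scaling Gclm stood at -0.985 and was not called (limma adjusted p = 0.0783). With edgeR neither Gclm (-0.998, adjusted p = 0.0814) nor Prdx1 (-1.01, adjusted p = 0.119) was called. With no filter on low values Nfe2l2 was not called (limma adjusted p = 0.121). The microglia libraries carried 47864 and 176519 of immediate early signal against 3632 to 7765 in LPM, and cell cycle genes at 102.5 to 149.9 against 2624 to 3674.

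Against the cultured and elicited cells, microglia were lower in 7 of the 9 genes in both pairs, all but Nfe2l2 and Gclc. Of the 7, Nqo1 was counted from 3 and 1 reads in the microglia libraries, and Slc7a11 stood at 10.0 and 56.2 there. Calls of single genes in the pairs of this paragraph were not rechecked gene by gene in the alternative fits. In microglia against BMDM, 30.4% of all genes were called, and Srxn1 was lower by -5.62 ± 0.41 (limma adjusted p = 1.73e-05) and Prdx1 by -5.34 ± 0.31 (adjusted p = 5.38e-06). In microglia against TGEM, 37.5% were called, and Srxn1 was lower by -7.00 ± 0.41 (adjusted p = 5.14e-06) and Txnrd1 by -3.13 ± 0.32 (adjusted p = 9.2e-05). Nfe2l2 stood at 0.01 ± 0.41 in the pair with TGEM. SPM were lower than BMDM in 7 genes and higher in Gsr (15.1% of all genes called), and lower than TGEM in 7 genes (26.5% called). Microglia against SPM gave 4 calls (20.7% of all genes called): Nfe2l2 higher by 1.498 ± 0.41 (adjusted p = 0.0297), and Gsr, Srxn1 and Prdx1 lower.

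**Figure D2:**
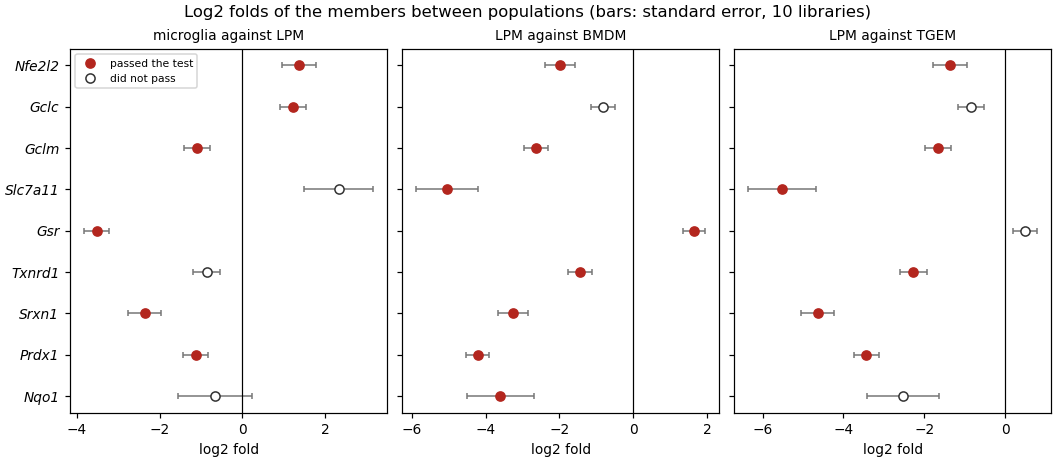
Points are log2 folds of value + 1 for the 9 genes, with bars of 1 SE from the limma fit of 10 libraries, in microglia against LPM, LPM against BMDM and LPM against TGEM. Srxn1 and Prdx1 lie below 0 in all 3 pairs, whereas Gsr lies at -3.53 in microglia against LPM and at 1.66 in LPM against BMDM.

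Other genes of the pathway were counted from lists chosen with earlier results of these data known. Such counts, here and below, describe the listed genes and do not test the pathway. Of 13 genes of heme, iron, quinone and radical handling, 11 were lower in LPM than in BMDM and 0 higher, with a median of -2.12. Of all genes 15.6% were called, with a median of 0.00. The iron stores Fth1 (-5.18 ± 0.67, limma adjusted p = 0.000875) and Ftl1 (-2.81 ± 0.46, adjusted p = 0.00326), the carbonyl reductase Cbr3 (-3.75 ± 0.53, adjusted p = 0.00142) and the metal-binding Mt2 (-3.38 ± 0.83, adjusted p = 0.0225) were among them. In LPM against TGEM, where 27% of all genes were called, 9 of the 13 were lower and 1 higher, with heme oxygenase Hmox1 at -3.33 ± 0.43 (adjusted p = 0.000582). Of 10 regulators of NRF2, Sqstm1, whose p62 protein sequesters KEAP1, was the 1 called in LPM against BMDM (-2.15 ± 0.33, adjusted p = 0.0024), and Keap1 itself stood at -0.75 ± 0.33 (adjusted p = 0.165). Against TGEM 5 regulators were lower and 1 higher in LPM. Of 12 genes of glutathione handling, 3 were lower in LPM than in BMDM: Glrx (-3.51 ± 0.33), Gstm1 (-3.18 ± 0.59) and Slc3a2 (-2.79 ± 0.38), the heavy chain that partners SLC7A11. Thioredoxins with peroxiredoxins (Prdx2, 1 of 10) and NADPH supply (Pgd, 1 of 6) each had 1 gene lower, a share near that of all genes.

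In microglia against LPM, where 18.3% of all genes were called with a median of -0.11, the thioredoxin and NADPH lists had calls in the lower direction only. Of 10 thioredoxins and peroxiredoxins 6 were lower in microglia and 0 higher (median -1.50), among them Txn1 (-3.62 ± 0.41, limma adjusted p = 0.000241) and Prdx6 (-3.50 ± 0.31, adjusted p = 5.31e-05). Of 6 genes of NADPH supply 4 were lower (median -1.51), led by isocitrate dehydrogenase Idh1 (-3.87 ± 0.34) and malic enzyme Me1 (-3.46 ± 0.64). In glutathione handling 3 of 12 were lower, Mgst1 by -8.56 ± 0.63, and Slc3a2 was higher by 1.89 ± 0.38. Of the regulators, the small MAF genes Maff (5.48 ± 0.52, adjusted p = 8.14e-05) and Mafk (2.11 ± 0.30, adjusted p = 0.00093) were higher in microglia and 0 of 10 lower. In heme, iron, quinone and radical handling 5 of 13 were lower and Cbr3 was higher.

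The genes whose pattern over the 10 libraries was most like each member were found by Pearson's r of log2(value + 1), centred within each table, among 10917 or 10918 genes with a mean of at least 50. Prdx1 was most like Arhgap19 and Cyb5a (both r = 0.99), Srxn1 most like Blvra and Vat1 (both 0.99) and Txnrd1 most like Tbc1d2 and Esd (both 0.99). Gsr was nearest to Slc25a13 and Fzd1 (both 0.99), Gclm to Cyb5a and Txnl1 (1.00 and 0.99), and Slc7a11 to Trp53inp2 and Klhdc2 (both 0.97). For Nfe2l2 the nearest were Lonrf3 and Pcna (both 0.96), for Gclc Ube2j1 and Trim36 (both 0.96), and for Nqo1 Sycp3 and Aga (0.99 and 0.97). Among the members, Gclm with Prdx1 (0.99), Txnrd1 with Srxn1 (0.98) and Srxn1 with Prdx1 (0.94) ran most alike, and Gclc with Gsr (-0.81) least. All points share the 10 libraries and 5 populations.

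Microglia and LPM of 3 strains gave a second view of that pair, with C57BL6/J libraries shared with the population fit. Gclc was 671 against 235 in C57BL6/J microglia and LPM, 642 against 252 in NOD/ShiLtJ and 717 against 314 in SPRET/EiJ. All microglia lay above all LPM, and the fold was 1.35 ± 0.21 (limma adjusted p = 0.00715). Prdx1 read 192 against 475, 217 against 421 and 121 against 250.1 in the same order of strains. Microglia were below LPM in each strain (-1.10 ± 0.23, adjusted p = 0.0205), and likewise for Srxn1, at 10.9 against 83.9, 18.9 against 50.3 and 6.60 against 77.4 (-2.52 ± 0.54, adjusted p = 0.0234).

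Gsr read 162 against 2097 in C57BL6/J, 126 against 584 in NOD/ShiLtJ and 259 against 505 in SPRET/EiJ (-2.28 ± 0.48, limma adjusted p = 0.0222). Microglia were below LPM in each strain, and LPM of the other strains lay far below the C57BL6/J library, which came from another table. That is 1 gene higher and 3 lower of 9 across strains, where 16% of all genes were called, with a median of -0.22 over the 9 genes and 0.00 over all genes (Srxn1, Gsr, Prdx1 and Gclc each in 3 of 3 strains). With 2 residual degrees of freedom these calls were fragile. Within the 4 libraries of the strain table only the call of Gclc held, Srxn1 stood at -2.37 (adjusted p = 0.0863), Gsr at -1.58 (0.0625) and Prdx1 at -0.999 (0.0931). The calls of Srxn1 and Prdx1 were lost whichever of the 6 libraries was left out (0.0703 to 0.199), those of Gsr without any but SPRET/EiJ microglia (0.0536 to 0.219), and that of Gclc without any but SPRET/EiJ microglia (0.05 to 0.108). Immediate early genes summed to 4370 and 2631 in the NOD/ShiLtJ and SPRET/EiJ microglia and to 2886 and 5441 in their LPM, and their part in the result was not tested.

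Nfe2l2 was 1283 against 1052 in NOD/ShiLtJ and 1781 against 1337 in SPRET/EiJ, microglia above LPM in each, but the fold across strains was 0.90 with an adjusted p of 0.15. Slc7a11 stood at 2.53 ± 0.82 across strains (limma adjusted p = 0.0885) and Txnrd1 at -0.64 ± 0.22 (adjusted p = 0.102), neither called. LPM of NOD/ShiLtJ and SPRET/EiJ held only 2 and 3 reads of Slc7a11. Gclm read 80.1 against 91.0 in NOD/ShiLtJ and 97.6 against 67.3 in SPRET/EiJ. Nqo1 read 1.35 against 4.52 in NOD/ShiLtJ, from 2 and 8 reads, and 37.6 against 17.8 in SPRET/EiJ, from 57 and 28 reads. The SPRET/EiJ values of Nqo1 were the highest of all untreated microglia and LPM libraries. Between SPRET/EiJ and NOD/ShiLtJ, with 0.303% of all genes called, 0 of the 9 were called by limma or edgeR. An unadjusted limma p under 0.05 was found for 2 of the 9 and for 2044 of the 18496 genes tested. Nqo1 stood at 2.90 ± 0.80 (adjusted p = 0.249). Reads of both strains were set on mm10, a C57BL6/J genome, and how far that lowers counts of SPRET/EiJ was not tested.

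In cultured LPM, counted over exons, levels per kilobase put Prdx1 first at a median of 1706 reads per kilobase per 10000000 over 8 libraries. Gsr (437), Nfe2l2 (370.1) and Txnrd1 (352) followed, then Srxn1 (118), Gclm (111), Gclc (88.2) and Slc7a11 (23.5), with Nqo1 last at 3.12. Additive and ligand were tested in 1 fit of these 8 libraries. In it limma gave all genes 1 shared variance trend, so a gene's own spread does not enter its p-value. LPM markers summed to 1817 to 9644 in these cultures.

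TGFB1 lowered 3 of the 9 genes and raised 0, with 6.7% of all genes called. Gsr read 328 with TGFB1 against 1134 with its vehicle in IL-34, and 202 against 887 in M-CSF. Both TGFB1 libraries lay below every other LPM culture, whose lowest value was 887, and the fold was -1.96 ± 0.33 (limma adjusted p = 1.42e-07). Nfe2l2 read 376 against 1109.9 in IL-34 and 323 against 1032 in M-CSF. These too were below every other LPM culture, with a fold of -1.62 ± 0.32 (adjusted p = 2.61e-05). Txnrd1 read 912 against 1667 and 529.9 against 1166, at -1.003 ± 0.33 (adjusted p = 0.0401), a call at the threshold that was lost in every alternative fit (folds of -0.78 to -1.23). Without the M-CSF DMSO library Gsr and Nfe2l2 each had an adjusted p of 0.0523, and Nfe2l2 had 0.0834 without the M-CSF TGFB1 library. With no filter on low values they had 0.099 and 0.119.

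Gclc moved the other way in value, 497 against 299 in IL-34 and 441 against 303 in M-CSF, with both TGFB1 libraries above every other LPM culture, but its fold of 0.64 was not called (limma adjusted p = 0.325). Prdx1 read 1863 against 2390.4 and 1243 against 2801 (fold -0.77, adjusted p = 0.263). The median over the 9 genes was -0.77 against -0.06 over all genes. Of the other lists, 4 of 13 genes of heme, iron, quinone and radical handling were lower with TGFB1: Osgin1 (-1.82 ± 0.50), Sod2 (-1.58 ± 0.32), the biliverdin reductase Blvrb (-1.24 ± 0.32) and catalase Cat (-1.04 ± 0.34). In glutathione handling Gstm1 was lower (-1.83 ± 0.39) and Glrx higher (1.36 ± 0.34), of 12. Txnip (1 of 10) and G6pdx (1 of 6) were lower, and 0 of 10 regulators were called.

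ATRA gave 0 calls of the 9 genes in limma and 0 in edgeR, with 2.3% of all genes called by limma. An unadjusted limma p under 0.05 was found for 2 of the 9 and for 1361 of the 15417 genes tested. Gsr was 2286 against 1287 in IL-34 and 1626 against 1186 in M-CSF, above its DMSO partner with both ligands, but at 0.64 ± 0.33 it was not called (adjusted p = 0.561). Slc7a11 was below its DMSO partner with both ligands, 244 against 367 and 88.8 against 149 (adjusted p = 0.522). Of the other lists, Sesn2 (1.21 ± 0.36), Idh1 (1.26 ± 0.38) and Mt2 (2.30 ± 0.55) were higher with ATRA.

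IL-34 against M-CSF gave 1 call, where 0.999% of all genes were called. Slc7a11 was higher with IL-34 than with M-CSF under each additive: 367 against 149 with DMSO, 244 against 88.8 with ATRA, 532 against 184 with vehicle and 247 against 188 with TGFB1. The difference was smallest with TGFB1, and the fold was 1.16 ± 0.23 (limma adjusted p = 0.000212). The call was lost without 5 of the 8 libraries, namely IL-34 with DMSO, ATRA or vehicle and M-CSF with DMSO or vehicle, at folds of 1.04 to 1.122 and adjusted p of 0.099 to 1. With no filter on low values it had an adjusted p of 1.

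**Figure D3:**
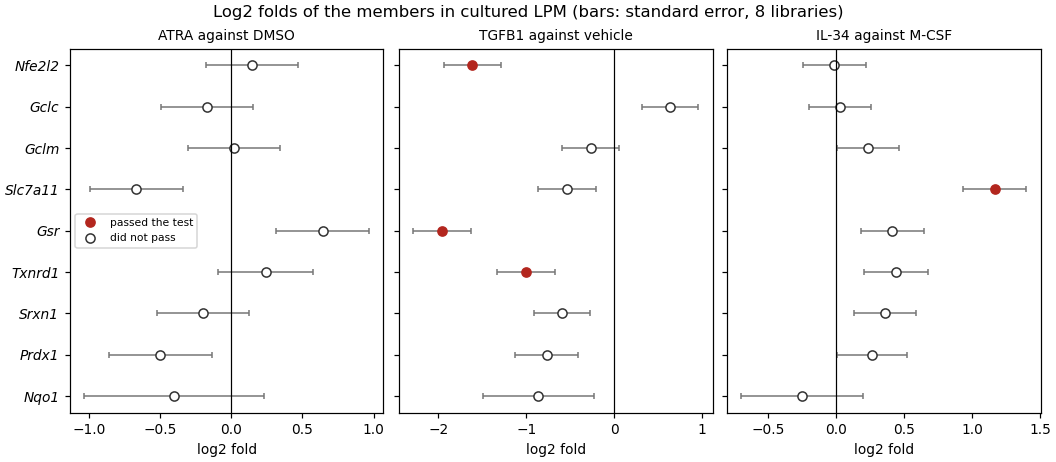
Points are log2 folds of value + 1 with bars of 1 SE in the fit of 8 cultured LPM libraries, for ATRA against DMSO, TGFB1 against its vehicle and IL-34 against M-CSF. Gsr (-1.96) and Nfe2l2 (-1.62) lie lowest under TGFB1, and Slc7a11 (1.16) lies highest for IL-34.

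The values of all 9 transcripts were higher in the 3 microglia cultures than in the untreated library. The share of all genes with that order was not computed, and expressed genes were shifted upwards by a median of 0.86 (log2). Nqo1 in M-CSF, at 3.16, lay within the 3.35 that 0 untreated reads allow, so its order there is not settled. The single untreated microglia library of the exon table, labelled as having no treatment although its column heading carries a vehicle mark, read 82.7 for Prdx1, against 3936 in IL-34, 7053 in M-CSF and 5566 in GM-CSF. Every culture lay far above the untreated library, and the fold was 6.00 ± 0.44 (limma adjusted p = 0.0171). Srxn1 read 4.47 untreated and 691, 847 and 593 in the same order of cytokines (7.01 ± 0.28, adjusted p = 0.00529). Gclm read 13.4 untreated and 306, 239 and 396 (4.42 ± 0.38, adjusted p = 0.0244). Gsr read 42.5 untreated and 647, 1098 and 755 (4.23 ± 0.39, adjusted p = 0.0291). All 3 cultures were above the untreated library in each gene.

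Slc7a11 read 16.8 untreated and 455, 378 and 1083, the last with GM-CSF, but its fold of 5.01 ± 0.79 missed the threshold (limma adjusted p = 0.0709). Txnrd1 read 126 and then 1116, 2604 and 1525 (3.69 ± 0.61, adjusted p = 0.0758). Nfe2l2 was 399 untreated and 913, 1734 and 670.2 in culture (1.35, adjusted p = 0.329), and Gclc 211 and 396, 316 and 460.4 (0.87, adjusted p = 0.199). Nqo1 had 0 reads untreated, which allows a level of up to 3.35, and 3.16 to 11.9 in culture. So 4 of 9 genes were called, all higher, where 9.01% of all genes were called, with a median of 4.23 against 0.48 over all genes. Of the 9, 7 had an unadjusted limma p under 0.05, as had 4561 of the 16446 genes tested.

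Expressed genes as a whole were shifted upwards in this comparison by a median of 0.86, and relative to that shift the folds were 6.14 for Srxn1, 5.14 for Prdx1, 3.55 for Gclm and 3.36 for Gsr, while Nfe2l2 was at 0.49 and Gclc at 0.00. With 1 untreated library, the spread within untreated cells is taken from the cultures, and culture, handling and library cannot be told apart. Leaving out a culture raised the adjusted p of Gclm to 0.0677 to 0.143 (any of the 3), of Gsr to 0.153 without GM-CSF and 0.103 without IL-34, of Prdx1 to 0.127 without GM-CSF and 0.0645 without M-CSF, and of Srxn1 to 0.0543 without IL-34. Immediate early genes summed to 32135 in the untreated library and to 2877 to 7398 in the cultures, and microglia markers to 62151 and to 12319 to 23542. Mesothelial and fibroblast markers summed to 3.354 untreated and 37.52 to 564.5 in the cultures, mast cell markers to 0 and 3.411 to 135.2, SPM and dendritic markers to 157.7 and 919.4 to 3059, and cell cycle genes to 84.98 and 139 to 3545. The part of any of these in the result was not tested. Of the other lists, Mgst1 (9.25 ± 0.77), Glrx (3.98 ± 0.25), Hmox1 (3.53 ± 0.40), Prdx6 (3.25 ± 0.29), Taldo1 (2.85 ± 0.27), G6pdx (2.62 ± 0.24), Cat (2.60 ± 0.30), Ugdh (2.47 ± 0.29) and Pgd (2.22 ± 0.24) were called higher and 0 lower. These are 2 of 12 in glutathione handling, 3 of 13 in heme, iron, quinone and radical handling, 1 of 10 thioredoxins and peroxiredoxins and 3 of 6 in NADPH supply. Of the 10 regulators 0 were called (median 1.51).

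Cultured microglia were then set against cultured LPM in the same exon table, using the IL-34 and M-CSF cultures of microglia, which had no additive, and those of LPM with DMSO or the vehicle of TGFB1. Srxn1 read 691 and 847 in microglia and 327 to 411 in the 4 LPM cultures, without overlap (1.07 ± 0.21, limma adjusted p = 0.0145). It was the 1 gene called, where 14.3% of all genes were called, and the median was 0.37 over the 9 genes and 0.17 over all genes. Under TMM scaling its fold was 0.92 and with edgeR 0.94, below the threshold of 1, and without M-CSF microglia it was 0.79. Without either M-CSF LPM library its adjusted p was 0.0682 and 0.076. Prdx1 read 3936 and 7053 against 2390.4 to 3419.7, also without overlap, at 0.91 (adjusted p = 0.0781). Among regulators Maff (2.22 ± 0.55), Mafk (1.77 ± 0.43) and Rbx1 (1.04 ± 0.23) were higher in cultured microglia, 3 of 10.

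**Figure D4:**
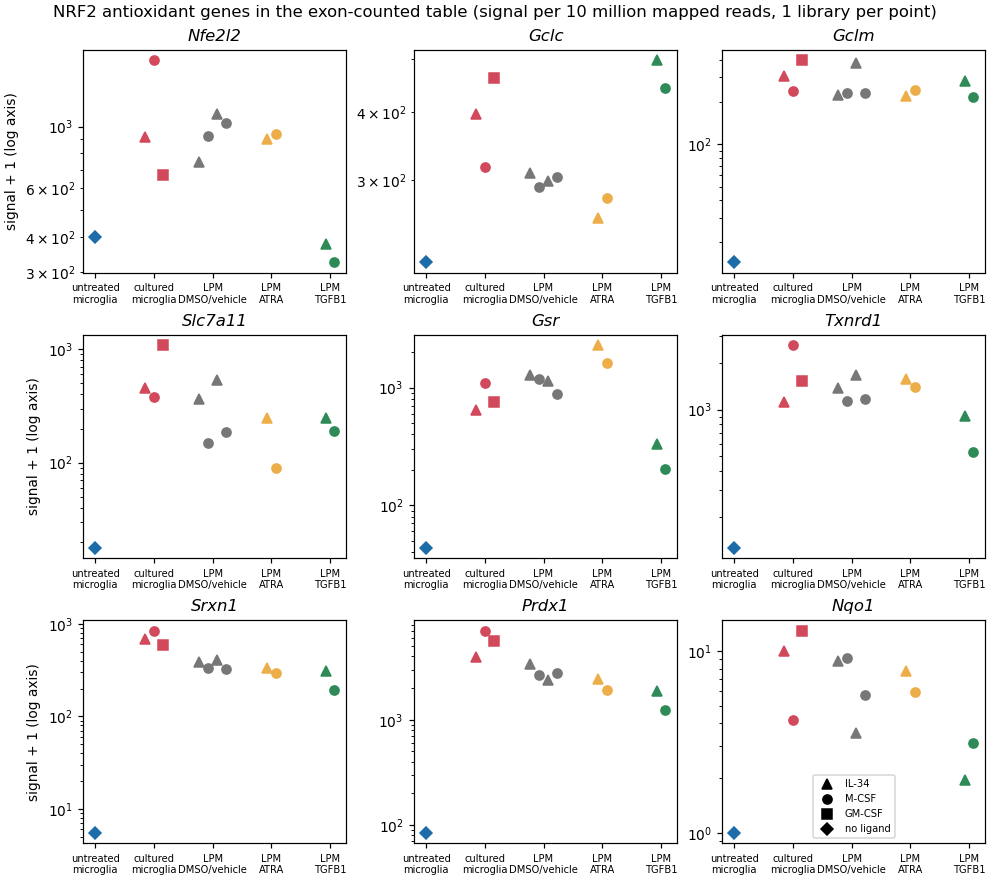
Values of the 9 genes counted over exons, as reads per 10000000 mapped reads plus 1 on a log axis, in the untreated microglia library, the 3 microglia cultures and the 8 LPM cultures, 1 point per library. The untreated library is the lowest point for Prdx1 (82.7), Srxn1 (4.47), Gclm (13.4) and Gsr (42.5), and the TGFB1 cultures are the lowest LPM points for Gsr (328 and 202).

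ChIP-seq lists were read at the starts of the same genes, as an entry within 1 kb, and within 100 kb. There is 1 list per mark and population, so no replicate check exists. PU.1 is the lineage factor of macrophages, H3K4me2 marks promoters and enhancers, and H3K27ac marks active ones. An entry's rank is given as its percentile by deposited score within its own list, since lists differ in length, from 15091 entries in microglia to 35713 for H3K27ac. The H3K27ac lists held an entry at the starts of 51.4% of 10918 expressed genes in microglia, 74.6% in LPM, 79.9% in SPM, 81% in BMDM and 87.9% in TGEM, so an absent entry is commonest in microglia for genes at large. The H3K4me2 list of SPM, with 30028 entries, was the shortest of its mark and held one at 70.6% of these starts, against 91.6% to 93.1% in the other 4.

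An H3K27ac entry lay at the start of Nfe2l2 and Prdx1 in all 5 populations, and 2 of 9 compares with 44.8% of 10918 expressed genes. At Nfe2l2 it ranked between percentiles 96.28 and 98.68 in every population. At Prdx1 it ranked at percentile 60.19 in microglia, 72.37 in LPM, 76.65 in SPM, 96.03 in BMDM and 99.89 in TGEM. These ranks come from single lists of unequal length, so a difference in rank does not establish a change between populations. Srxn1 had entries in LPM (45.97), BMDM (91.45) and TGEM (93.33) and none in the microglia and SPM lists.

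Gclm had entries at percentile 79.83 in BMDM and 86.26 in TGEM, at 33.55 in LPM and 33.95 in SPM, and none in the microglia list. Gsr had an entry in LPM (94.92), SPM (67.1), BMDM (90.45) and TGEM (92.93) but none in the microglia list, where its transcript was lowest. Slc7a11 ranked at 95.92 in TGEM and at 16.71 to 19.54 in LPM, SPM and BMDM, with none in microglia, and its BMDM transcript level overlapped that of TGEM. Within 100 kb of Slc7a11, 9 of the 12 H3K27ac intervals were listed in TGEM alone. The TGEM list is longer than that of microglia, with 35121 against 15091 entries. How common intervals of TGEM alone are near genes at large was not computed. Nqo1 had entries in BMDM (53.98) and TGEM (16.75), where 56 and 239 and 75 and 9 reads were counted, and none in the other 3 lists, where 0 to 7 reads were counted. Gclc had entries in microglia (13.44), where its mean transcript level was highest, and in LPM (32.52), SPM (32.01) and TGEM (56.09), with none in BMDM. The listed start of Txnrd1 (position 82833951) had no entry of any mark, while its further starts at 82859206 and 82860341 held H3K4me2 in 5 populations (percentiles 95.22 to 97.74) and H3K27ac in 4 (85.31 to 92.62). The window printed for Txnrd1 is that of 82859206.

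In the strain lists the H3K27ac entry of Nfe2l2 was present in both populations of NOD/ShiLtJ and SPRET/EiJ (95.96 to 98.48). That of Gsr was present in LPM of NOD/ShiLtJ (70.43) and SPRET/EiJ (64.02) and in neither microglia list, where 43.3% and 39.1% of expressed genes had one. The lists of cultured LPM held entries at 0 to 0.348% of the starts of expressed genes, so they do not cover starts, and they were not used here.

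**Figure D5:**
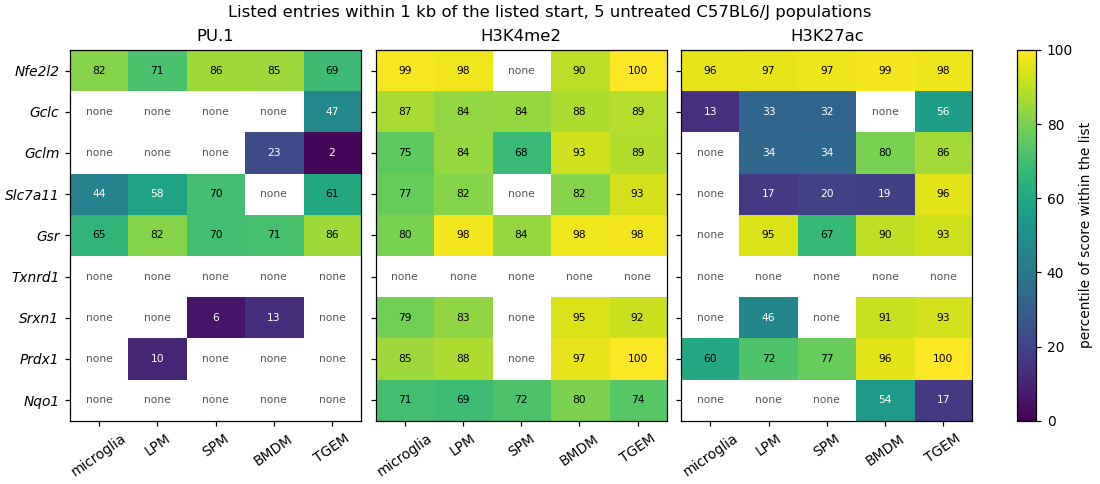
The heat map gives the percentile, by deposited score within each list, of the entry within 1 kb of each gene's start for PU.1, H3K4me2 and H3K27ac in the 5 populations, with white cells where none was listed. H3K27ac at Prdx1 ranks at 60.19 within the microglia list and at 99.89 within that of TGEM, and Gsr lacks it in microglia only.

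PU.1 entries lay at the starts of Nfe2l2 (percentiles 68.67 to 85.61) and Gsr (65.29 to 85.62) in all 5 populations, 2 of 9 genes against 41.2% of expressed genes. The second further start of Txnrd1, 82860341, also held one in all 5 (79.52 to 90.95), and 82859206 held one in 4 (36.8 to 74.42), though its listed start held none. The BMDM list was taken as PU.1 from its title, while its antibody field names H3K4me2. H3K4me2 lay at 4 starts in all 5 populations, those of Nqo1, Gclm, Gclc and Gsr, against 67.7% of expressed genes. The SPM list lacked those of Nfe2l2, Srxn1, Slc7a11 and Prdx1. Within 100 kb of the 9 starts, 252 PU.1 intervals were listed, of which 50 were shared by all 5 populations and 96 were in 1. For H3K4me2 26 of 174 were shared and 69 were in 1, and for H3K27ac 15 of 121 and 59. The same shares near genes at large were not computed, so these counts do not set the 9 genes apart.

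Several genes had strong PU.1 entries far from the start. The highest-ranking one near Gclm lay 45.3 kb downstream in all 5 populations (99.18 to 99.62), that near Gclc 74.1 kb downstream in all 5 (96.52 to 99.85) and that near Srxn1 24.6 kb upstream in all 5 (90.9 to 98.6). Whether such an entry acts on the gene named was not measured.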

How the data were processed

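RNA was measured in 26 libraries and chromatin in 39 ChIP-seq lists. Gene signal was deposited in 4 tables, in which the authors had set each library to 10000000 mapped reads, per the file headers. The submitters' processing notes name mm10, STAR, Bowtie and HOMER. Their versions and the strand setting are not given in the labels or headers. The listed length equals the full gene span in 99.6% of rows of the replicates table (99.59% in the polyA and strain tables) and in 8.26% of the exon-counted table of ribosomal RNA-depleted cultures. Each peak or region list carries a score that the authors deposited per entry, per the file headers, which served only for ranks inside that list. The labels say that sorted ChIP samples were fixed before sorting and that each list is 1 sample.

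The members and gene lists were chosen with earlier results of these data known. All 9 members were tested in each comparison, but those not called are not all named, and in some pairs called ones are only counted. Of each list the counts called are given, with up to 4 called genes by absolute fold. Dividing by the worth of 1 read gave whole reads (100% of low values within 0.1). The values being scaled and not raw, limma 3.58.1 (R 4.3.3) with a mean-variance trend was run on log2(value + 1), over genes at 1 or more in at least 1 library, with Benjamini-Hochberg adjustment over all genes tested. The population fit used 10 libraries with the deposited table as a replicate block, because replicate 1 libraries are polyA and those of LPM, SPM and microglia in the other table are ribosomal RNA-depleted (the kind of BMDM and TGEM replicate 2 is not labelled). The strain fit used 6 libraries with strain as a block and left out X and Y genes, which are listed at 0 in the strain table. Cultured LPM had terms for additive and ligand (8 libraries), cultured microglia were set against 1 untreated library (4 libraries), and cultured microglia and LPM were compared with ligand as a term (6 libraries). Residual degrees of freedom were 4, 2, 3, 2 and 3 in that order.

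Alternatives were a pseudocount of 5, no filter on low values, TMM scaling, the quasi-likelihood test of edgeR 4.0.16 on those reads, no replicate block, the strain table alone and leaving out each library, and for lists other windows, overlaps and the upper 50% by score. The population fit without BMDM replicate 2 was entered again under another name, so its values are counted again. Library kind was not fitted as a block. edgeR called 8834 genes over the populations where limma called 8179, 1059 and 1033 for TGFB1, and 308 and 1482 for cultured against untreated microglia. Deviations of same-table libraries correlated across genes at -0.24 to 0.90 over 10 pairs of populations, 6 of them over 0.1. Steps were tested on simulated data. Inputs were not used here, nor were the ChIP-seq lists of cultured LPM, which lack starts (the PU.1 lists of TGFB1 and its vehicle are also identical). Tables used Python 3.11.15, pandas 2.3.3, numpy 2.4.6 and matplotlib 3.10.9.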

Additional observations from a re-analysis of the deposited data

Results flagged for a closer look

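The difference between microglia and LPM ran in opposite directions in 2 strains for Gclm and for Nqo1. For Gclm, microglia minus LPM was -1.18 and -1.004 on the log2 scale in the C57BL6/J pairs and 0.53 in SPRET/EiJ, which leaves a difference of 1.624 between these strains. NOD/ShiLtJ lay between them at -0.18. For Nqo1 the difference was -1.23 in NOD/ShiLtJ and 1.04 in SPRET/EiJ, 2.274 apart, from 2 and 8 reads and from 57 and 28 reads. Each strain other than C57BL6/J had 1 library per population, so neither difference between strains was tested.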

How the results depend on the processing

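Results were recomputed under the alternatives named in the methods, where the population fit without BMDM replicate 2 was entered again under another name. Of the population pairs, only microglia against LPM, LPM against BMDM, LPM against TGEM and BMDM against TGEM were recomputed gene by gene. Calls of single genes in the other pairs were rechecked only as counts and are not among the results below. The recomputation gave 1395 further values for 108 results on single genes. Of these 1190 kept direction and side of the threshold, 153 fell short of it, 10 newly passed it and 42 changed sign, in 20 results of which 0 had been called. Of 42 called results 14 held under every setting: the range over populations of Gclm, Gsr, Prdx1, Slc7a11, Srxn1 and Txnrd1, Gsr in microglia against LPM, Gclm, Prdx1 and Srxn1 in LPM against BMDM, and Prdx1, Slc7a11, Srxn1 and Txnrd1 in LPM against TGEM. Where a value changed, the cause was not tested.

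With no replicate block 49 rather than 54 of the pairwise tests of the 9 genes and 8 of 9 F tests were called, and over all genes 32644 rather than 38060 pairwise tests and 7224 rather than 8179 F tests. Same-table libraries of microglia, LPM and SPM deviated together (correlations of 0.77 to 0.90) and those of TGEM did not, so table and replicate number do not pair all samples.

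Keeping all genes without a filter gave 5449 genes in the F test, 17 rather than 2967 in microglia against LPM across strains (0 rather than 4 of the 9), 9 rather than 56 in SPRET/EiJ against NOD/ShiLtJ, 10 rather than 355 for ATRA, 8 rather than 1033 for TGFB1 (0 rather than 3 of the 9), 0 rather than 154 for IL-34 (0 rather than 1 of the 9) and 593 rather than 2282 in cultured microglia against LPM (0 rather than 1). The strain table alone gave 1897 genes and 1 of the 9. IL-34 against M-CSF gave 24 genes under TMM scaling and 97 with edgeR. Cultured against untreated microglia gave 798 genes at a pseudocount of 5 and 308 with edgeR rather than 1482. Cultured microglia against LPM gave 0 of the 9 under TMM scaling and with edgeR.

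Leaving out 1 library gave 23175 to 35313 pairwise calls over all genes. Across strains it gave 0 to 3 of the 9 and 310 to 2147 genes, for SPRET/EiJ against NOD/ShiLtJ 0 genes each time, for ATRA 0 to 290 genes, for TGFB1 0 to 2 of the 9 and 2 to 947 genes, and for IL-34 0 to 1 of the 9 and 0 to 182 genes. For cultured against untreated microglia it gave 1 to 2 of the 9 and 1121 to 1263 genes, and for cultured microglia against LPM 0 to 2 and 1264 to 2162 genes. Cultured against untreated microglia could not be fitted without the untreated library.

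Signs changed in these results. Gclc in BMDM against TGEM was 0.22 without BMDM replicate 2 (-0.28 to 0.22 leaving out a library), and Nqo1 in microglia against LPM -1.44 to 0.12. Across strains Nqo1 was 0.038 at a pseudocount of 5 (-0.85 to 0.28) and Gclm 0.17 in the strain table alone (-0.59 to 0.17). In SPRET/EiJ against NOD/ShiLtJ leaving out a library gave -0.64 to 0.49 for Gclm, -0.049 to 0.87 for Nfe2l2, -1.25 to 0.48 for Srxn1, -2.68 to 0.63 for Slc7a11 and -0.58 to 1.40 for Gsr. For ATRA, Gclm was -0.084 under TMM scaling and -0.053 with edgeR (-0.22 to 0.26), Nfe2l2 -0.051 to 0.34 and Nqo1 -0.83 to 0.027. For TGFB1, Gclm was -0.59 to 0.060. For IL-34, Nfe2l2 was 0.14 under TMM scaling and with edgeR (-0.088 to 0.086), Nqo1 was 0.000975 with edgeR and Gclc -0.019 to 0.078. In cultured microglia against LPM, Nqo1 was -0.10 under TMM scaling and -0.18 with edgeR (-0.79 to 0.83), Gclm -0.089 and -0.099 (-0.10 to 0.22), Gsr -0.90 to 0.10 and Txnrd1 -0.44 to 1.18.

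With 200 bases of overlap 0 starts held PU.1 in all 5 populations, but PU.1 entries had median widths of 154 to 179 bases, so this setting is no test of PU.1. Within 25 kb 16 PU.1, 9 H3K4me2 and 5 H3K27ac intervals were shared by all 5, and in the upper 50% of each list 32 PU.1 and 8 H3K27ac intervals. Depth limits Nqo1 most, at 0 to 8 reads in resident C57BL6/J and NOD/ShiLtJ cells, and Slc7a11 in LPM of NOD/ShiLtJ and SPRET/EiJ, at 2 and 3 reads.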

Other observations

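Between the ligands, cultured microglia gave values outside the comparisons above. Txnrd1 was 1116 with IL-34 and 2604 with M-CSF, a difference of -1.22 on the log2 scale, and Nfe2l2 (913 and 1734) differed by -0.92, Prdx1 by -0.84 and Gsr by -0.76. Slc7a11 differed by 0.27 in microglia, against 1.29 and 1.53 in the DMSO and vehicle cultures of LPM. Slc7a11 reached its highest value of the exon table, 1083, in GM-CSF, which was tried on microglia alone. Each of these cultures is 1 library, so none of these differences was tested.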
